A study of Mus musculus with 6 samples.

Results

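Cck, Reg1, Mcpt8, Limch1 and Ldb2 are 5 protein-coding genes of unrelated families. They were selected on their large difference between high and normal glucose in the 6 samples described here, so their values in that comparison are a description and carry no test. In the order above their identifiers are ENSMUSG00000032532, ENSMUSG00000059654, ENSMUSG00000022157, ENSMUSG00000037736 and ENSMUSG00000039706. All 5 are among the 55487 gene identifiers of the count table and among the 19015 genes that passed the filter on low counts. Bulk RNA sequencing of poly(A) RNA was done on cultured C57BL/6 mouse skin cells that the labels call endothelial, isolated with CD31 beads from skin pooled from 4 to 6 mice at 2 to 3 months of age. The control group had 3 samples in medium with 5 mmol/L glucose, and the other group had 3 samples in medium with 20 mmol/L glucose, both for 48 hours. No further treatment, allele or osmotic control group is named in the labels. Total counts were 120192466, 135253663 and 124212369 for the controls against 146881356, 121930179 and 139967043 with high glucose. The study counts its replicates in mice, while the labels describe a pool of mice and do not tie a sample to an animal or isolation, so the p-values below measure only the spread between these samples.

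The 5 gene products act in different places. Cholecystokinin, from Cck, is a peptide hormone of intestinal endocrine cells and a neuropeptide, and Reg1 encodes a secreted protein with a C-type lectin fold, known from the pancreas and the gut. Mcpt8 encodes a granule serine protease known as a marker of mouse basophils, Limch1 a cytoplasmic protein that binds and activates nonmuscle myosin II, and Ldb2 a nuclear cofactor that binds the LIM domains of transcription factors.

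The cell type on the labels was compared with marker genes first. Pecam1, which encodes CD31, the protein that the beads bind, was at 0.128 ± 0.0378 CPM (counts scaled to library size after TMM normalization; SD, n = 3) in normal glucose and 0.103 ± 0.0359 in high glucose. Sox17 had 0 counts in all 6 samples, and Tie1, Cldn5, Robo4 and Emcn had at most 9 counts in any sample. Per kilobase of exon, Pecam1 stood at 0.0206 CPM in normal glucose, Kdr at 0.549 and the fibroblast gene Pdgfra at 195. The 15 endothelial markers summed to 216, 234 and 243 CPM in normal glucose and to 200, 194 and 200 CPM in high glucose, and of the 10 tested, 3 were lower and 2 higher, or 30.0% and 20.0%, where 14.5% of all tested genes were called lower and 16.9% higher at an adjusted p under 0.05 (quasi-likelihood test of edgeR, adjusted by the Benjamini-Hochberg method). Erg, 1 of the 2 higher, had at most 8 counts in a control and passed the filter on low counts only through the high glucose samples. The other higher marker, Tek, had 180, 177 and 151 counts in the controls against 302, 243 and 255 with high glucose. The log2 fold change of Tek was 0.66 (adjusted p = 0.00219, edgeR), and the samples of either group alone would have let it pass. Other genes of the list were well above 0. Eng, a receptor gene and the highest of the list, had 155 ± 12.3 CPM in normal glucose and 140 ± 3.48 in high glucose, and Flt1 had 55.3 ± 2.06 and 38.4 ± 0.153 (SD, n = 3). Cdh5, the gene of the cadherin of endothelial junctions, had 1.80 ± 0.0797 and 0.876 ± 0.0806 CPM (SD, n = 3), or -1.03 on the log2 scale (adjusted p = 1.4e-04, edgeR). The 10 fibroblast markers, led by Col3a1, summed to 41200, 38200 and 41300 CPM in normal glucose and to 72800, 75200 and 70300 CPM in high glucose, with 8 of 10 tested higher and 2 lower, against those same shares of all genes. The 8 mural markers, led by Pdgfrb, summed to 917, 955 and 1010 CPM against 933, 882 and 941 CPM, with 2 lower and 2 higher, or 28.6% each of those tested. Since Pecam1, Sox17, Tie1, Cldn5, Robo4 and Emcn were at or near 0 while other genes of the endothelial list were not, the samples are called cultured skin cells here. In bulk RNA, fewer cells of a type and less RNA per cell cannot be told apart, and the part that the higher sum of the fibroblast list had in the values below was not tested.

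**Figure D1:**
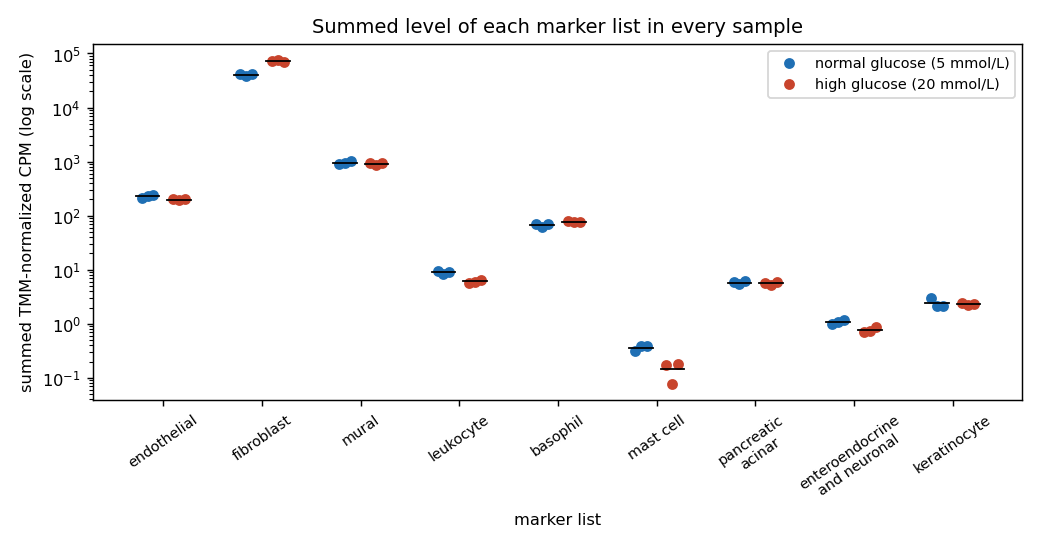
Summed TMM-normalized CPM of each marker list (log axis) in each of the 3 normal glucose (blue) and 3 high glucose (red) samples, with a line at the mean of each group. The fibroblast list lay between 38200 and 75200 CPM, while the mast cell list was at most at 0.390 CPM in any sample.

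In GRCm38, Cck spans 121489824 to 121495694 of chromosome 9 on the minus strand. Its 3 control samples held 10760, 8976 and 9734 counts (85.9, 63.3 and 76.0 CPM), and the 3 high glucose samples held 1573, 1117 and 1247 (11.1, 9.61 and 9.25 CPM). All 3 high glucose samples were low and the groups were far apart, the lowest normal glucose sample being 5.71 times the highest high glucose sample. The means were 75.1 ± 11.4 CPM and 9.98 ± 0.975 CPM (SD, n = 3), a 7.52-fold lower level in high glucose, or -2.91 on the log2 scale (SE 0.114). Per kilobase of exon, Cck had 57.5 CPM in normal glucose, above or equal to 95.8% of tested genes on this scale, and 7.65 CPM in high glucose, above or equal to 70.6%.

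Mcpt8, on the minus strand of chromosome 14 from 56082166 to 56085273, held 883, 876 and 859 counts in the controls against 148, 109 and 118 with high glucose. The corresponding levels were 7.05, 6.18 and 6.71 CPM and 1.04, 0.937 and 0.876 CPM. Again every high glucose sample was low, with no overlap between groups. The means of 6.65 ± 0.442 and 0.952 ± 0.0849 CPM (SD, n = 3) correspond to a 6.98-fold lower level and a log2 fold change of -2.80 (SE 0.109). Per kilobase, Mcpt8 was at 6.66 CPM in normal glucose, where Cck was higher, and at 0.954 CPM in high glucose.

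Reg1, on the plus strand of chromosome 6 from 78422711 to 78428667, moved the other way. It held 270, 224 and 268 counts in the controls against 3567, 3296 and 3745 with high glucose, or 2.16, 1.58 and 2.09 CPM against 25.1, 28.3 and 27.8 CPM. The 3 high glucose samples were all high, and their lowest value was 11.7 times the highest normal glucose value. Reg1 was 13.9-fold higher in high glucose, with a log2 fold change of 3.80 (SE 0.113). On the per kilobase scale it went from 2.15 ± 0.350 to 30.0 ± 1.89 CPM (SD, n = 3), from above or equal to 47.8% of tested genes to 91.3%.

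Limch1 lies on the plus strand of chromosome 5 from 66745827 to 67057158, and is the longest of the 5 in exon sequence, with 10263 bp. Its counts were 728, 872 and 803 in the controls against 4944, 4495 and 4911 with high glucose, or 5.81, 6.15 and 6.27 CPM against 34.9, 38.7 and 36.4 CPM. All high glucose samples were high and the samples of a group lay close together. The means were 6.08 ± 0.236 and 36.7 ± 1.91 CPM (SD, n = 3). This is a 6.03-fold higher level, or 2.59 on the log2 scale (SE 0.0641). Per kilobase its level was 0.592 CPM in normal glucose and 3.57 CPM in high glucose.

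Ldb2, on the minus strand of the same chromosome from 44472132 to 44799680, held 563, 835 and 622 counts in the controls against 1909, 1604 and 1937 with high glucose. These are 4.50, 5.89 and 4.86 CPM and 13.5, 13.8 and 14.4 CPM. Normal glucose replicate 2 was the highest of its group and still below each high glucose sample. The means were 5.08 ± 0.721 and 13.9 ± 0.462 CPM (SD, n = 3), a 2.73-fold higher level, or 1.45 on the log2 scale (SE 0.100). Per kilobase Ldb2 had 1.52 ± 0.216 CPM in normal glucose and 4.16 ± 0.138 CPM in high glucose.

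**Figure D2:**
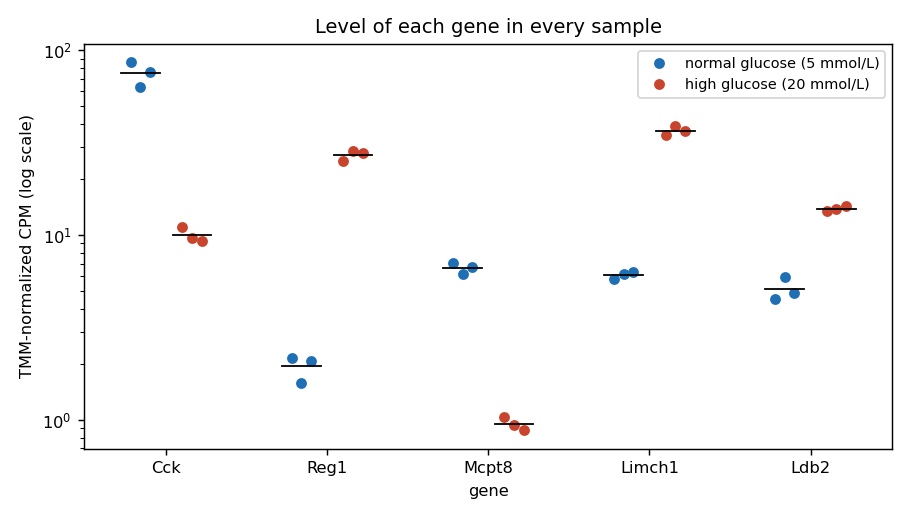
TMM-normalized CPM of the 5 genes (log axis) in each normal glucose (blue) and high glucose (red) sample, with a line at the mean of each group. Cck and Mcpt8 were lower and Reg1, Limch1 and Ldb2 higher in every high glucose sample, from 85.9 CPM for Cck down to 0.876 CPM for Mcpt8.

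The groups did not overlap for any of the 5 genes, as was the case for 46.4% of all tested genes. Of the 5, 2 were lower and 3 higher, and among all tested genes 14.5% were called lower and 16.9% higher. Because the 5 were selected on this comparison, nothing is read from their count. The share of lower genes among all calls was 46.2%, and it was 56.5% with upper quartile and 72.9% with library size scaling in place of TMM. Without high glucose replicate 1 the number of all genes called higher was 2010, and without high glucose replicate 3 it was 1988, against 3212 with all samples. On the per kilobase scale, the order in normal glucose was Cck, Mcpt8, Reg1, Ldb2 and Limch1. In high glucose it was Reg1, Cck, Ldb2, Limch1 and Mcpt8, so Mcpt8 moved from the second place to the last. The spread within groups also differed. The coefficients of variation in normal glucose were 15.1% for Cck, 16.3% for Reg1 and 14.2% for Ldb2, but 6.65% for Mcpt8 and 3.89% for Limch1, beside a median of 6.40% over the 12479 tested genes with a mean of at least 1 log2 CPM. In high glucose they lay between 3.33% for Ldb2 and 9.76% for Cck, beside a median of 3.60%.

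Among these 12479 genes ranked by log2 fold change, Cck was number 3 and Mcpt8 number 4 from the lowest. The genes ranked just outside that pair were Gm29100, at -3.26 with an SE of 0.618, and Mgp, at -2.79 with an SE of 0.162. From the highest, Reg1 was number 3, Limch1 number 5 and Ldb2 number 72. Just above Reg1 stood Gm45234, at 3.87 with an SE of 0.934, whose high glucose level of 7.21 ± 7.16 CPM (SD, n = 3) varied about as much as its mean, and whose log2 fold change was 2.81 without high glucose replicate 1. Just below Reg1, and just above Limch1, stood Cnmd at 3.28, which encodes chondromodulin, and Vtn, which encodes vitronectin, followed Limch1. Ldb2 lay between Ptprz1 at 1.45 and Wdr86 at 1.44, so its place in the order does not differ from theirs beyond their SE of 0.105 and 0.111.

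**Figure D3:**
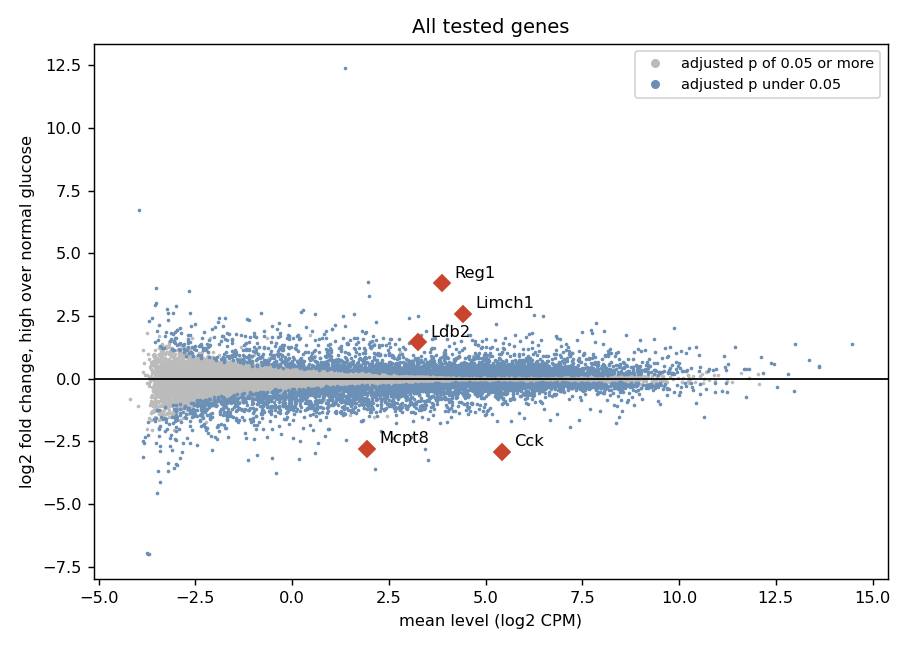
Log2 fold change of high over normal glucose against mean log2 CPM for every tested gene, in blue where the adjusted p was under 0.05 and in grey otherwise, with the 5 genes as red diamonds. Reg1 at 3.80 and Cck at -2.91 lie apart from most genes of their level, and Ldb2 at 1.45 lies closer to them.

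Likeness of pattern was measured over the 6 samples as the root mean square difference in log2 CPM, each gene being centred on its normal glucose mean. Cck and Mcpt8 were the nearest genes to each other, with a difference of 0.111. For both, the next were Mgp, which encodes an inhibitor of calcification, at 0.253, and the transcription factor gene Etv4. Reg1 had no comparably close gene, its nearest being Cnmd at 0.404. Nearest to Limch1 were Vtn at 0.0666, Fgf23, which encodes a hormone of phosphate balance, at 0.0692, and Pi16 at 0.0745. Pi16 went from 22.3 ± 0.804 to 129 ± 2.12 CPM (SD, n = 3). Nearest to Ldb2 were Wdr86 at 0.0272, Gcnt4 at 0.0678 and the potassium channel gene Kcnj2 at 0.0692. These genes were chosen by their values in the same comparison and carry no test.

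Cck and Mcpt8, the most alike in pattern among pairs of the 5 genes, are on different chromosomes, and the bases before their RefSeq starts are printed here to set them side by side. Of the 5 genes, 4, all but Ldb2, were matched in the RefSeq promoter table for GRCm38.p6. The windows hold the 250 bases before the start, 5′ to 3′ on the gene's strand, at chr9:121495695-121495944 (minus strand) for Cck and chr14:56085198-56085447 (minus strand) for Mcpt8. The Mcpt8 window lies partly within the span given above, which ends at 56085273, as 2 starts are annotated for this gene. Capitals mark matches to 6 motifs searched on both strands, chosen after the sequences had been seen.
Cck: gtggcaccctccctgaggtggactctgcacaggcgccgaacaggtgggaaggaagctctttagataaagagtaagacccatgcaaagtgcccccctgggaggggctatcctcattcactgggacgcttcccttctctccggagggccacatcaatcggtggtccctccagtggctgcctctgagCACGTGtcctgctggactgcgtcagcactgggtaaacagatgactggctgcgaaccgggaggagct
Mcpt8: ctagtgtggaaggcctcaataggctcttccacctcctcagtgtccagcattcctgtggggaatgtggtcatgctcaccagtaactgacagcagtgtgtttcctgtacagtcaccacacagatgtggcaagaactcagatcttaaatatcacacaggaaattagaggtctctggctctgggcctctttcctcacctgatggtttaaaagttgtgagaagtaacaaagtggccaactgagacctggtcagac
Cck held the E-box CACGTG 66 bases before its start, a motif found in 6.02% of the 32851 windows of this length. Mcpt8 held none of the 6 motifs, which says only that these letters are not in this window. The other motifs were the cyclic AMP response element TGACGTCA, in 1.55% of windows, the AP-1 element TGANTCA in 6.75%, the STAT element TTCNNNGAA in 7.02%, the GC box GGGCGG in 32.7% and the TATA box TATAAA in 12.4%. Only these letters were searched, so a variant of a motif in the Cck or Mcpt8 window would not be marked. A match is a description of the letters and shows no binding.

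The 3 nearest tested genes on each side of each of the 5 were examined next, since position was not used to choose them. Over all of them, 5 of 30 neighbours were called lower and 7 higher in high glucose, beside 14.5% and 16.9% of all tested genes. Of the 7, 4 were the Reg3 genes next to Reg1. Reg3b and Reg3d among the higher and Cma2 among the lower passed the filter on low counts only through the group in which they were high, that is, the samples of the other group alone would not have let them pass. Of the 25 neighbours that either group alone would have let pass, 4 were lower and 5 higher, or 16.0% and 20.0%, beside 15.0% and 18.0% of all such genes. Over all neighbours, 4 in place of 7 were called higher without high glucose replicate 1, and 9 without normal glucose replicate 2. None of the 6 neighbours of Cck was called, with log2 fold changes between -0.12 for Ss18l2 and 0.27 for Vipr1. Trak1, which encodes a mitochondrial transport adaptor, starts 192 kb away and had 95.0 ± 6.93 CPM in normal glucose and 94.4 ± 3.11 CPM in high glucose (SD, n = 3). Of the 6 neighbours of Limch1, Uchl1, which encodes a deubiquitinase, was lower at -0.56 (adjusted p = 0.00111, edgeR) and Apbb2 higher at 0.17. The call of Apbb2 was lost in 7 of 15 alternative fits, among them those without normal glucose replicate 3 and high glucose replicates 1 and 2 (0.15 in each) and without high glucose replicate 3 (0.17). Of the 6 neighbours of Ldb2, Lap3 was lower at -0.25 (adjusted p = 0.00777, edgeR) and Gm42984 higher at 0.79. Gm42984 lost its call without high glucose replicate 1, at 0.68.

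The neighbours of Reg1 are mostly its own family. Reg3b, Reg3d, Reg3a and Reg3g, which encode related secreted lectins, start between 42.0 and 52.1 kb from Reg1 on chromosome 6. Reg3g had 28.5, 24.7 and 26.4 CPM in normal glucose and 143, 153 and 157 CPM in high glucose, so all 3 high glucose samples were high and the groups did not overlap. Its log2 fold change was 2.51 (SE 0.0676, adjusted p = 2.3e-08, edgeR), a 5.69-fold higher level. Reg3a went from 0.372 ± 0.101 to 1.16 ± 0.0970 CPM (SD, n = 3), or 1.64 on the log2 scale (adjusted p = 1.3e-04, edgeR) with 3 of 3 high glucose samples above all controls. Reg3b had 0 counts in every control and 12, 14 and 13 counts with high glucose. Against a floor of 3 counts per library it was at least 4.19-fold higher, or at least 2.15-fold if both reads of a pair were counted and the counts are halved. Reg3d had 5, 3 and 0 counts in the controls against 15, 11 and 15 with high glucose, a 5.15-fold ratio of summed counts (95% interval 2.39 to 12.7, exact, for counting error only). Both genes passed the filter only through the high glucose samples, so no p is given for them. The call of Reg3d at 2.31 was lost without normal glucose replicate 2 (2.33), high glucose replicate 1 (2.28) or high glucose replicate 3 (2.24), and its value was 3.11 without normal glucose replicate 1. With so few counts in the controls these fitted values depend on the prior count. Reg2, the closest relative of Reg1, and Reg4 had 0 counts in all 6 samples. Per kilobase, Reg3g was the most abundant of the family in both groups, at 12.5 CPM in normal and 71.3 CPM in high glucose, above Reg1 at 2.15 and 30.0 CPM. No stretch of 75 bases, the read length given in the study's methods, was shared between Reg1 or these Reg3 genes and the annotated transcripts of another gene. Only exact matches were counted. The labels name a different sequencing platform from those methods, so the length of these reads is not certain. Beyond the family, Lrrtm4, 1600 kb away, was also higher (1.56, adjusted p = 0.00176, edgeR), and Gcfc2 was at 0.16 and not called.

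Since Reg1 and Reg3g were both higher, the bases before their RefSeq starts are shown, at chr6:78425733-78425982 (plus strand) and chr6:78468875-78469124 (minus strand) of GRCm38.p6. The Reg1 window lies within the span given above, since its 3 annotated transcripts have 3 starts. Capitals mark the motifs named above.
Reg1: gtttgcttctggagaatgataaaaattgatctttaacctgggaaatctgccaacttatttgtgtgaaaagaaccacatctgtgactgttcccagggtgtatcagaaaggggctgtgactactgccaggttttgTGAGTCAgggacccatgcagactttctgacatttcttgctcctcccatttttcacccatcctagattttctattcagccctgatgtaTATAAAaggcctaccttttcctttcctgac
Reg3g: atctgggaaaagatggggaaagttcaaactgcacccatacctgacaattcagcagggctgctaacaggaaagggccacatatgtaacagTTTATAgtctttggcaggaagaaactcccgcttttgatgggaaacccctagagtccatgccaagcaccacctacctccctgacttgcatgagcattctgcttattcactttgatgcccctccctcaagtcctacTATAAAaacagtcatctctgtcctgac
Reg1 held a TATA box 30 bases before its start and an AP-1 element 117 bases before it. Reg3g held a TATA box 27 bases before its start and another, read on the opposite strand, 161 bases before it. Of the other Reg3 windows, those of Reg3b and Reg3d each held a STAT element, 129 and 238 bases before the start, Reg3b also held a TATA box 29 bases before it, and Reg3a held none of the 6 motifs. The share of G and C was 42.8% for Reg1, 47.2% for Reg3g, 48.4% for Mcpt8 and 60% for Cck.

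Proteins of the Reg family are known to be induced by cytokines that signal through gp130, the product of Il6st, and the kinases and STAT3 downstream of it. Of the 23 other genes on the list of this family and pathway, 19 were tested, and 13 were higher and 2 lower in high glucose, or 68.4% and 10.5%, beside 16.9% and 14.5% of all tested genes. Of the 13, 4 were the Reg3 genes already described. Reg3b and Reg3d among them had been tested only because of their high glucose counts. Of the 17 genes that either group alone would have let pass, 11 were higher and 2 lower, or 64.7% and 11.8%, beside 18.0% and 15.0% of all such genes. This list and the other related lists below were chosen with earlier results of these data known. Their shares are therefore a description and no test of the lists. Of the full list, between 10 and 14 genes were higher over the alternative fits, in place of 13. The number was 10 under library size scaling, without the filter, and without high glucose replicate 1 or 3. The median log2 fold change was 0.37, also with Reg3b set at its bound, against 0.006 over all tested genes. Il6st, the most abundant gene of the list, had 725, 892 and 857 CPM in normal glucose and 1910, 1970 and 1980 CPM in high glucose. The groups were clearly apart, with a log2 fold change of 1.24 (adjusted p = 1.1e-06, edgeR). Among the ligands, Il6 was higher at 1.34 (15.8 ± 1.30 to 40.0 ± 1.70 CPM; SD, n = 3; adjusted p = 3.9e-07, edgeR), while Il11 at -0.66 and Lif at -0.39 were lower and Osm had 0 counts in every sample. The receptor gene Lifr was higher at 0.77, and Osmr and Il6ra, at 0.24 and 0.14, were not called, though Osmr was called without normal glucose replicate 2, at 0.32, and by DESeq2, at 0.23. Downstream, Jak2 at 0.51, Bcl3 at 0.40, Socs3 at 0.28 and Stat3 at 0.19 were higher, and Jak1 at 0.07 was not called. Stat3 lost its call without high glucose replicates 1 (0.16), 2 (0.18) or 3 (0.17) and without the filter (0.17), and with library size scaling both Stat3 (0.07) and Socs3 (0.17) did. Extl3, which encodes a reported receptor of Reg proteins, was at 0.07 and not called. The list also held 2 receptor genes outside gp130 signalling. Il10rb, among the 13, was higher at 0.37, and Il22ra1 had 0 counts in every sample. Reg1 is usually known from pancreatic acinar cells, and the 9 markers of those cells summed to 5.87, 5.44 and 6.09 CPM in normal glucose and 5.71, 5.33 and 5.90 CPM in high glucose. The sum was nearly all Cela1, and Cpa1, Cela2a and Ctrb1 were at 0 in all samples. The 6 keratinocyte markers, led by Krt10, summed to 2.97, 2.10 and 2.11 CPM against 2.45, 2.23 and 2.34 CPM. Among them the basal keratin gene Krt5 had 2, 2 and 2 counts in the controls against 23, 12 and 14 with high glucose, an 8.21-fold ratio of summed counts (95% interval 3.51 to 23.5, counting error only), and it passed the filter only through the latter. Krt14, its partner, had 2, 0 and 0 counts against 35, 9 and 31 and was not tested. Krt1 and Cdh1 had at most 2 and 3 counts in a sample. Their part in the level of Reg1 was not tested.

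Mcpt8 lies in a cluster of granule protease genes on chromosome 14. Gzme, which encodes a granzyme and starts 35.5 kb away, had 5.65, 4.64 and 4.77 CPM in normal glucose and 2.03, 2.06 and 2.53 CPM in high glucose. Every high glucose sample was below every control, with a log2 fold change of -1.18 (adjusted p = 4.5e-05, edgeR). Cma2, a chymase gene 131 kb away, had 19, 23 and 26 counts in the controls against 0, 0 and 5 with high glucose, a 13.5-fold ratio of summed counts (95% interval 5.52 to 43.0, counting error only). It passed the filter only through the controls, so no p is given, and it was also called lower with a filter on the mean over all samples in place of that one. Without high glucose replicate 3 both remaining high glucose samples were at 0 counts, so no fold is given for that fit. Of the 75-base stretches of Cma2, 29.5% also occur in Mcpt4 or Mcpt9, both at 0 counts in all samples, and 4.75% of those of Gzme occur in Gzmd or Gzmg. Mcpt8 shared none with another gene. Gzmd and Gzmb, the other granzyme neighbours, were at -0.27 and 1.38 and not called. Gzmb was called without normal glucose replicate 2, at 2.49. Sdr39u1 was lower at -0.26 but lost its call without normal glucose replicate 3 (-0.22), high glucose replicate 1 (-0.29) or high glucose replicate 3 (-0.25), and Gm5801 was at -0.10 and not called.

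**Figure D4:**
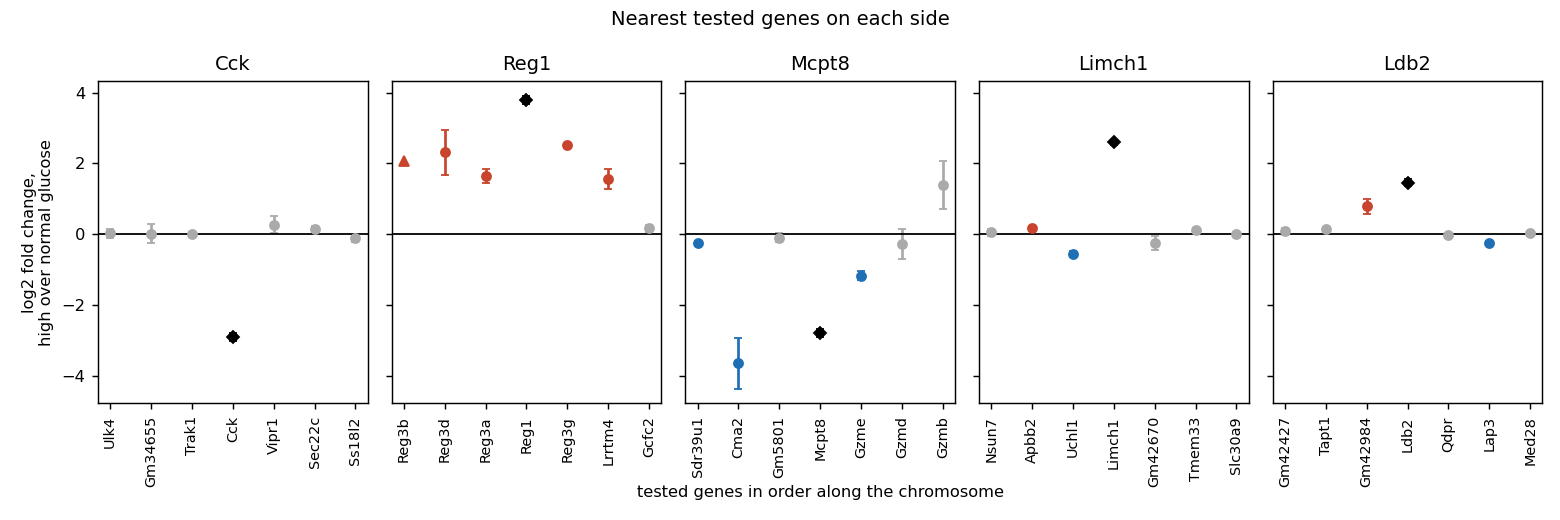
Log2 fold change of high over normal glucose (bars, SE) for each of the 5 genes (black diamonds) and the 3 nearest tested genes on each side, in order along the chromosome, red for called higher, blue for called lower and grey for not called. The Reg3 genes beside Reg1 were all higher (triangle for Reg3b, a lower bound of 2.07), and none of the genes beside Cck was called. The fitted values of Cma2 and Reg3d rest on few counts.

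Of the 26 genes on the list of granule serine proteases and their partners, 25 were in the table and 9 were tested, 3 of them lower and 1 higher, or 33.3% and 11.1% beside 14.5% and 16.9% of all tested genes, with a median of -0.27. Cma2, described above, is among the 3. Of the 6 genes that either group alone would have let pass, 2 were lower and 1 higher. These are 33.3% and 16.7%, beside 15.0% and 18.0% of all such genes. The third lower gene was Ctsc, at -0.48, which encodes the cathepsin that activates granule proteases. Srgn, whose product packs proteases into granules, was higher, from 2.92 ± 0.355 to 8.81 ± 0.600 CPM (SD, n = 3), or 1.59 on the log2 scale (adjusted p = 2.3e-06, edgeR). Leaving out normal glucose replicates 1, 2 or 3 or high glucose replicate 3 gave 2 genes of the list called higher. So did the filter on the mean over all samples. Without normal glucose replicate 2 the second gene was Gzmb, at 2.49, which was not called in any other fit that measured it. The second gene was therefore not the same in all of these fits. The 8 basophil markers summed to 71.2, 62.3 and 68.8 CPM in normal glucose and 79.6, 75.7 and 76.3 CPM in high glucose, mostly from Il3ra. Of the 5 tested, Il3ra was higher at 0.24, a call lost without high glucose replicates 1 (0.20) or 3 (0.23) and with library size scaling (0.13). Ms4a2, which encodes the beta chain of the IgE receptor and is also the 1 tested mast cell marker, was lower, with 16, 33 and 25 counts in the controls against 11, 5 and 6 with high glucose. It passed the filter only through the controls, so no p is given. Hdc had 24, 36 and 22 counts against 50, 19 and 36 and Il4 57, 58 and 45 against 45, 36 and 43, and neither was called. Prss34 and Fcer1a had 0 counts in all 6 samples. The 8 mast cell markers summed to 0.319, 0.381 and 0.390 CPM in normal glucose and 0.176, 0.0774 and 0.178 CPM in high glucose, and Tpsab1 had 11, 9 and 10 counts in the controls against 0, 0 and 6. Kit had 10, 5 and 6 counts in the controls against 7, 0 and 8 with high glucose, and Cpa3 had 3, 7 and 7 against 7, 4 and 4. Cma1 had at most 2 counts in a sample, and Mcpt4, Tpsb2 and Mrgprb2 were at 0 throughout. The 6 leukocyte markers, led by Csf1r, summed to 9.43, 8.39 and 9.04 CPM against 5.72, 6.00 and 6.52 CPM, with 2 of 3 tested lower, beside 14.5% of all tested genes. Among them Tyrobp was at 0 throughout, and Ptprc had 16 counts in normal glucose replicate 1 and 0 in the other samples. The part that the basophil, mast cell and leukocyte markers had in the level of Mcpt8 was not tested.

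Cholecystokinin is cut from its precursor, sulfated and amidated in the secretory pathway before it acts on its receptors. The list of processing enzymes, granule proteins and receptors had 17 genes, of which 13 were tested, with 2 lower and 5 higher, or 15.4% and 38.5% where all tested genes had 14.5% and 16.9%, and a median of 0.29. Of the 9 that either group alone would have let past the filter, 2 were lower and 3 higher, or 22.2% and 33.3%, beside 15.0% and 18.0% of all such genes. The receptor genes Cckar and Cckbr had at most 14 counts and 1 count in a sample, Gast at most 4, and none was tested. Pcsk5, a convertase gene, had 246, 269 and 268 CPM in normal glucose and 751, 747 and 762 CPM in high glucose. Its groups lay far apart (1.53, adjusted p = 4.3e-08, edgeR). In normal glucose Pam and Cpe had more, at 393 and 292 CPM, and per kilobase Cpe was the highest of the list in both groups, at 112 and 95.0 CPM. The convertase gene Pcsk1 was lower, from 5.73 ± 0.205 to 3.15 ± 0.171 CPM (SD, n = 3; -0.86, adjusted p = 4.0e-05, edgeR), as was the carboxypeptidase gene Cpe at -0.24. The granule protein gene Scg2 was higher at 1.70 and the sulfotransferase gene Tpst1 at 0.35, while the amidating enzyme gene Pam, at -0.01, was not called. Pcsk2, at 2.33, and Scg3, at 1.95, had at most 38 and 29 counts in a sample and passed the filter only through the high glucose samples. Pcsk2 lost its call without normal glucose replicates 1 (1.77) or 3 (2.34) or high glucose replicate 1 (1.62) and was at 3.21 without normal glucose replicate 2. Scg3 lost its call without normal glucose replicates 2 (1.77) or 3 (1.54) or high glucose replicates 1 (1.81) or 2 (1.79) and was at 2.73 without normal glucose replicate 1. Without normal glucose replicate 3 or high glucose replicate 1, 3 genes of the list were called higher. The 9 enteroendocrine and neuronal markers summed to 1.01, 1.09 and 1.20 CPM in normal glucose and 0.691, 0.740 and 0.883 CPM in high glucose, led by Syp, and Neurog3 and Elavl3 had 0 counts. Of the 3 tested, only Snap25 was lower, or 33.3% beside 14.5% of all tested genes. It was at -0.99, a call lost without normal glucose replicate 3 (-0.90) or high glucose replicates 1 (-0.87) or 3 (-0.93). Syp at -0.24 and Chgb at 0.43 were not called. The part of these markers in the lower level of Cck was not tested.

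Among 30 other peptide hormone and neuropeptide genes, 12 were tested, 2 were lower and 4 higher, or 16.7% and 33.3% beside the same 14.5% and 16.9%, and the median was -0.22. Either group alone would have let 9 pass, of which 2 were lower and 2 higher, or 22.2% each, beside 15.0% and 18.0%. The other 2 higher genes were Calca and Ghrl. Npy, Pyy, Gcg, Gip and Nmu had 0 counts in all samples. Tac1, the gene of substance P, was lower at -1.40 (0.821 ± 0.229 to 0.308 ± 0.0381 CPM; SD, n = 3; adjusted p = 0.00106, edgeR), as was the enkephalin gene Penk at -0.86. Agt, which encodes angiotensinogen, was higher, from 98.9 ± 5.27 to 204 ± 7.37 CPM (SD, n = 3; 1.04, adjusted p = 6.5e-07, edgeR). Adm, the most abundant of the list, was higher at 0.25 and Calca, with at most 31 counts and past the filter only through the high glucose samples, at 1.74. Ghrl, at 1.79 with at most 28 counts and overlapping groups, lost its call without normal glucose replicates 1 (1.40) or 2 (1.51) or high glucose replicates 1 (1.59) or 3 (1.58), and was at 2.78 without normal glucose replicate 3. Without normal glucose replicate 2, 4 genes of the list were called lower. With library size scaling 3 were lower and 3 higher.

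Limch1 was set beside nonmuscle myosin II and its regulators. All 23 genes of this list were tested, and 6 were lower and 2 higher, or 26.1% and 8.70%, against 14.5% and 16.9% over all tested genes, with a median of -0.03. Mylk, which encodes myosin light chain kinase, had 31.3, 31.0 and 31.1 CPM in normal glucose and 83.3, 89.1 and 89.2 CPM in high glucose. The samples of a group nearly coincided and the groups were far apart (1.48, adjusted p = 4.1e-08, edgeR). The other higher gene was Ppp1r12b, at 0.31, which encodes a subunit of myosin phosphatase. Lower were Lmo7, a relative of Limch1, at -0.56, Cit at -0.73, Myh14 at -0.77, Actn1 at -0.32, Rhob at -0.24 and Rhoa at -0.20. Myh14 lost its call without normal glucose replicate 2 (-0.63), high glucose replicate 1 (-0.72) or high glucose replicate 3 (-0.63), and Rhoa without high glucose replicates 1 (-0.19) or 3 (-0.21). Without high glucose replicate 1, Ppp1r12b lost its call (0.26), as it did with library size scaling (0.20), which left 1 gene called higher in each. Myh9, with the highest CPM, was at 1140 ± 45.4 and 1270 ± 53.8 CPM (SD, n = 3) and was not called (0.15, adjusted p = 0.0605, edgeR). With library size scaling, 10 genes of this list were lower and 1 was higher.

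Ldb2 was set beside other LIM domain binding cofactors, LIM factors and further partners of their complexes, namely Tal1, Lyl1, Tcf3, Gata2 and the ubiquitin ligase gene Rlim. Of 25 genes, 18 were tested, with 4 lower and 6 higher, or 22.2% and 33.3% next to 14.5% and 16.9% of all tested genes, and a median of 0.15. Upper quartile scaling gave 4 lower and 4 higher, and library size scaling 6 lower and 4 higher. Its relative Ldb1 was the most abundant, at 150 ± 6.49 and 164 ± 7.52 CPM (SD, n = 3), and was not called (0.13, adjusted p = 0.111, edgeR), except without normal glucose replicate 1 (0.15). Per kilobase, Ldb1 had 32.6 CPM in normal and 35.6 CPM in high glucose, and Ldb2 1.52 and 4.16 CPM. The cofactor gene Ssbp2 was higher at 0.54 (adjusted p = 2.6e-05, edgeR), and the LIM-only gene Lmo4 at 0.32, while Lmo2 at -0.88 and Lmo1 at -0.70 were lower. Lmx1a, a LIM homeobox gene, had 17, 11 and 7 counts in the controls against 64, 47 and 78 with high glucose (2.42). Lhx2 had 21, 12 and 16 counts against 4, 3 and 1, a 6.09-fold lower ratio of summed counts (95% interval 2.86 to 14.9, counting error only). Lmx1a passed the filter only through the high glucose samples and Lhx2 only through the controls, so no p is given for either. Of the 14 genes that either group alone would have let pass, 3 were lower and 5 higher, or 21.4% and 35.7%, beside 15.0% and 18.0% of all such genes. Tcf3 was among the 6 higher genes at 0.17 and lost its call without normal glucose replicates 1 or 2 (0.14 in each) or high glucose replicates 1 (0.13), 2 (0.16) or 3 (0.18), and with upper quartile (0.13) or library size scaling (0.06) or no filter (0.15).

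**Figure D5:**
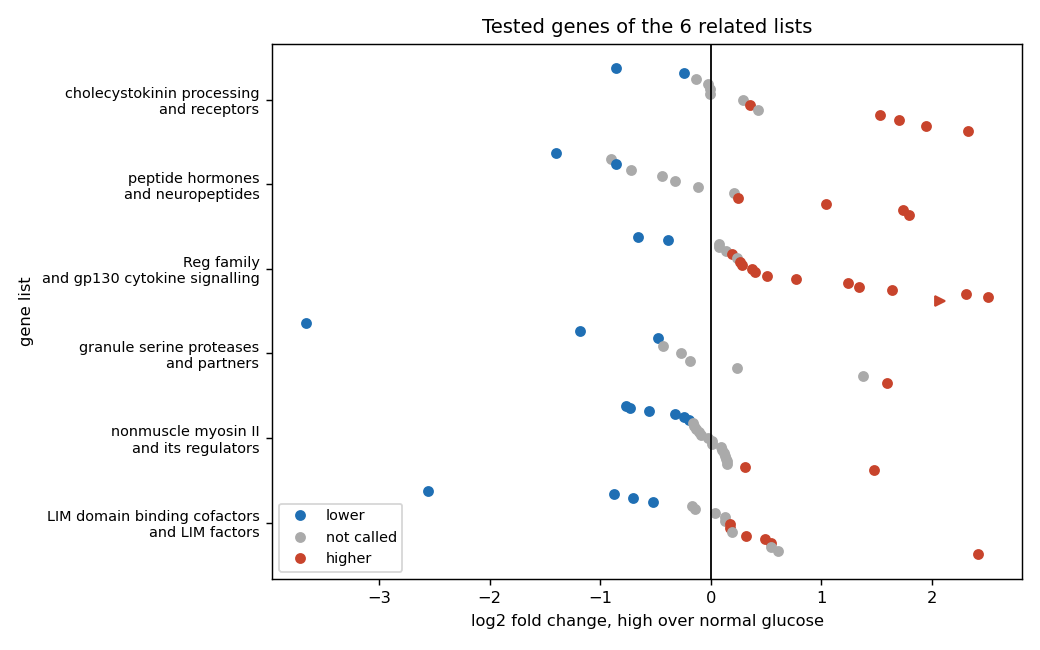
Log2 fold change of high over normal glucose for the tested genes of the 6 related lists, blue for called lower, red for called higher and grey for not called, with a triangle for the lower bound of Reg3b. The list of the Reg family and gp130 signalling had 13 higher and 2 lower of 19 tested genes, beside 16.9% and 14.5% of all tested genes. Reg3b and Reg3d among the 13 passed the filter only through the high glucose samples. Of the 17 genes that either group alone would have let pass, 11 were higher and 2 lower, or 64.7% and 11.8%. The shares of all such genes were 18.0% and 15.0%. The lists were chosen with earlier results of these data known, so their shares are a description.

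Over the 6 lists, 94 of 144 genes were tested, with 19 lower, or 20.2%, and 31 higher, or 33.0%, against 14.5% and 16.9% of all tested genes. Since the lists were chosen with earlier results of these data known, these shares are a description. Of the 31 higher, 6 passed the filter only through the high glucose samples, and of the 19 lower, 2 only through the controls. Ghrl needed samples of both groups to pass. Of the 78 genes that either group alone would have let pass, 17 were lower, or 21.8%, and 24 higher, or 30.8%, against 15.0% and 18.0% of all such genes. Scaling by library size alone moved the median over all tested genes by -0.115 on the log2 scale and gave 27 lower and 24 higher, so that the share of lower genes among those called went from 38.0% to 52.9%. In the 5 genes, no exon overlapped an exon of another annotated gene on either strand. For Limch1 the RefSeq table has starts at several positions, which counts per gene cannot tell apart. Of the 75-base stretches of its transcripts, 0.33% occurred in another gene.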

How the data were processed

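RNA of 3 normal and 3 high glucose samples was sequenced. The submitters' notes name Trimmomatic, HISAT2 and StringTie with GRCm38, and the authors deposited whole-number counts per gene without normalization. Tool versions and strand setting are not given in the sources used here, and the labels and the study's methods name different sequencing platforms. The analysis used R 4.3.3 and edgeR 4.0.16: filterByExpr (minimum count 10, minimum total 15), TMM, the quasi-likelihood test and Benjamini-Hochberg adjustment over all tested genes, with a threshold of 0.05. It was tested on simulated data. Annotation was GENCODE M21, and promoters came from RefSeq. Where a listed symbol had several identifiers, the one with the highest total count was used. Members and lists were chosen with earlier results of these data known. Named genes are the most abundant and the 4 most changed called genes of each list, family members, the 3 nearest genes on each side, the 3 most alike patterns and adjacent ranks; others were named after their values were seen. Alternatives were other scalings, no filter, DESeq2 1.42.0, limma-voom (limma 3.58.1), a replicate block, summed symbols, a log2 fold change of at least 1, and each sample left out. Added after seeing the data were a filter on the mean CPM over all samples and halved counts, since low even counts were frequent and both reads of a pair may have been counted. Floors (3 counts, 0.0211 to 0.0258 CPM) and exact intervals of count ratios cover counting error only, taking each count as a separate molecule, and would be too narrow if pairs were counted double.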

Additional observations from a re-analysis of the deposited data

How the results depend on the processing

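The log2 fold changes of the 5 genes kept their direction in all 16 alternative fits, between -3.03 and -2.82 for Cck, 3.66 and 3.87 for Reg1, -2.91 and -2.76 for Mcpt8, 2.48 and 2.61 for Limch1 and 1.33 and 1.56 for Ldb2. Library size scaling, which by its construction moved the median of all genes by -0.115, moved all 5 by about the same shift, to -3.02 for Cck, 3.69 for Reg1, -2.91 for Mcpt8, 2.48 for Limch1 and 1.33 for Ldb2, which exceeded the replicate spread for Mcpt8 and Limch1. It called 4884 genes lower and 1819 higher. A log2 fold change of at least 1 left 542 lower and 395 higher genes, of which 4 and 16 were related genes. Leaving out single samples gave between 1988 and 3149 genes called higher and between 4 and 9 neighbouring genes called higher, and the cause was not tested. Same-numbered samples deviated from their group means with correlations across genes of -0.094, 0.17 and 0.034, and not every sample correlated best with its own number. With 3 samples per group, these correlations do not show that the numbers pair the samples and cannot exclude it. With the replicate block the 5 genes had -2.90, 3.81, -2.80, 2.59 and 1.46, in the order above, and the block gave 2418 lower and 2909 higher genes, 19 and 29 related genes, and 4 and 7 neighbouring genes. Under it Pcsk2, Sdr39u1, Rhoa and Tcf3 were not called and Osmr was. Of 106 other named genes, 79 stayed called in the same direction or stayed not called, or for untested values stayed within the replicate spread, in every fit that measured them, and none reversed a called direction. Genes not called can differ in sign between fits. Halved counts, chosen after seeing the data, gave 26 related genes called higher in place of 31, and widened the intervals of the ratios of summed counts to 1.63 to 15.0 for Reg3d, 3.66 to 59.0 for Cma2, 1.87 to 16.6 for Lhx2 and 2.56 to 43.4 for Krt5. A filter on the mean over all samples, also chosen after seeing the data, called 3001 genes lower and 2936 higher. Low counts limit Reg3b, Reg3d, Cma2, Lhx2, Krt5, Pcsk2, Scg3 and Ghrl.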
